A study of Caenorhabditis elegans with 9 samples.

Results

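The cassette exons of *hif-1*, *egl-9* and *hir-1* are described here, 4 of the 786 cassette exons listed for the series. A cassette exon is an internal exon that is either kept in the mRNA (inclusion) or spliced out with its flanking introns (skipping). The exons were taken by gene name, as every cassette exon deposited for these genes: 1 in *hif-1*, 2 in *egl-9* and 1 in *hir-1*. The genes were selected on earlier results of these data, that is, on the inclusion levels of the same *smg-1*, *smg-2* and wild-type libraries that are described here. The choice described the exons as non-triplet, that is, with a length not divisible by 3, and as having an isoform that stops early. This held for 3 of them, whereas the 63-nt exon of *egl-9* is a triplet exon.

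The study examined how common non-triplet alternative splicing is in the living animal and what becomes of its isoforms. Some of these can be degraded by nonsense-mediated mRNA decay (NMD), the surveillance pathway that removes mRNAs whose translation stops prematurely. The study defined an event as NMD-sensitive where its splicing changed significantly in NMD mutants. Poly(A) RNA was sequenced from whole *Caenorhabditis elegans* at the fourth larval stage (L4), with 3 biological replicates each of *smg-1* animals (TR1331), *smg-2* animals (CB4043) and wild-type animals (N2). The labels call both mutants KO, each is represented by a single strain, and no other treatment or allele is named for any group. *smg-1* encodes the kinase and *smg-2* the RNA helicase of the NMD machinery. In whole animals, a change of splicing within cells and a change in the make-up of cell types cannot be told apart.

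The 3 genes belong to the response to low oxygen. HIF-1 is the transcription factor that switches on hypoxia genes. When oxygen is present, the prolyl hydroxylase EGL-9 modifies a proline of HIF-1, which lets VHL-1 bind it and send it to the proteasome. HIR-1 is a receptor tyrosine kinase named for its inhibition by hypoxia and known for its part in remodelling the extracellular matrix.

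The 203-nt exon of *hif-1* lies at V:20783326-20783528 (WBcel235, plus strand) and is coding in 1 of the 6 annotated transcripts, F38A6.3d.1, while the other 5 skip it. The transcript that includes it reads through the whole exon without a stop, continues for 184 codons in another frame and ends at a TAA codon at V:20784366-20784368, 197 nt upstream of the last exon junction and with 2 junctions downstream. It holds 665 sense codons, against 719 when the same transcript is built without the exon. The codon of the proline that EGL-9 hydroxylates was located by its motif (leucine, any pair of residues, leucine, alanine, proline), which occurs once in each of the 5 transcripts that skip the exon, at V:20784514-20784516. It lies beyond the early stop, and the reading frame of F38A6.3d.1 holds 0 matches to the motif. The exon is shown because its insertion moves the frame, and below it are the bases around the early stop, with the stop codon in capitals.
hif-1 203-nt exon: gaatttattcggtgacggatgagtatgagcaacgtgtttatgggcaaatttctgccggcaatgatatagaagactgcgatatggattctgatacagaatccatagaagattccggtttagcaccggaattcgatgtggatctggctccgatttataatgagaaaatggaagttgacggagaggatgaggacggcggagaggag
hif-1 early stop, V:20784354-20784383: cgtcgccaacatTAAcctctggcgaaccaa

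The 95-nt exon of *egl-9* lies at V:10474093-10474187 and works the other way round, because it is skipping that shifts the frame. It is present in 4 of the 7 annotated transcripts and skipped in the other 3. Without it, translation passes only 2 codons beyond the junction and meets TGA at V:10474818-10474820. The skipped isoform of F22E12.4b.1 then holds 363 sense codons, against 723 with the exon, and has 2 junctions downstream of the stop, the last of them 800 nt away. The other annotated transcripts that skip the exon end at the same stop, with 3 junctions downstream in F22E12.4b.3 and 0 in F22E12.4b.2. The skipped isoform of F22E12.4b.1 is 360 codons shorter in all and shares only the first 361 codons with the form that includes the exon. What it lacks is the C-terminal end, where prolyl hydroxylases of this family carry their catalytic domain. The sequence is given whole, followed by the skipping and the inclusion junction, each with 18 bases on either side. The bases in capitals are the same in both junctions, a stop codon in the frame of the first and out of frame in the second.
egl-9 95-nt exon: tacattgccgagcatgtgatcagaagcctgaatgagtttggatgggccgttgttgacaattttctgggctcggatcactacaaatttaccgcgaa
egl-9 skipping junction: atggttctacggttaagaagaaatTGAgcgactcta
egl-9 inclusion junction: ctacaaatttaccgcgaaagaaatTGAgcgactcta

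The 63-nt exon of *egl-9*, at V:10475642-10475704, keeps the frame. It is present in 5 transcripts and skipped in 1, F22E12.4d.1, and the coding sequence of F22E12.4a.1 holds 702 sense codons when built without it, against 723 with it, and both end at the stop codon at V:10476461-10476463. In F22E12.4b.1 and F22E12.4b.3 it lies beyond the early stop, and 363 sense codons are read with or without it. It is printed as the only exon of these genes that adds or removes whole codons.
egl-9 63-nt exon: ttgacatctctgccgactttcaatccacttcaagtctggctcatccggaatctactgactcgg

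The 358-nt exon of *hir-1*, at V:5527961-5528318, occurs in 1 of 3 annotated transcripts, C24G6.2b, for which no coding sequence is annotated. Built into the coding transcript C24G6.2a.1, it was read through without a stop and translation ended 34 whole codons past it, at a TGA at V:5528550-5528552. This form held 620 sense codons, against 903 without the exon, and 6 junctions lay downstream of the stop, the last 1111 nt away. The kinase domain of a receptor tyrosine kinase lies in its C-terminal part. The form with the exon was 283 codons shorter in all, but shared only the first 466 codons with the form without it. The first 120 bases of the exon (V:5527961-5528080) and the bases around the early stop are shown, the stop codon in capitals.
hir-1 358-nt exon, first 120 bases: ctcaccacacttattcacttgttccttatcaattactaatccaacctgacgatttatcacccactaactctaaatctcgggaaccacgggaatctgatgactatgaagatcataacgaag
hir-1 early stop, V:5528538-5528567: ccgaaagaaatcTGAaaatatgaaatttaa

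**Figure D1:**
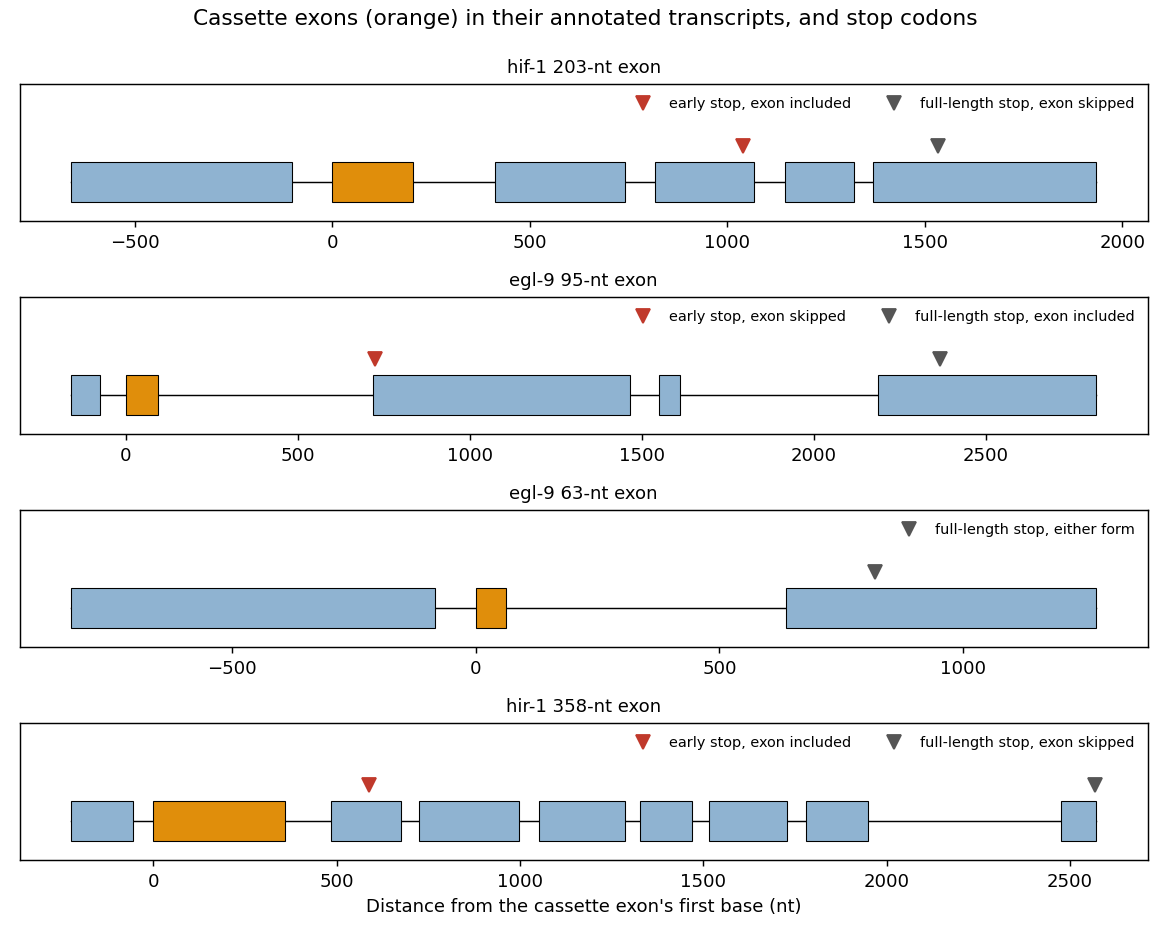
Exons of an annotated transcript around each cassette exon (orange), from the exon before it to the last exon, plotted by distance in nt from the first base of the cassette exon. Red triangles mark the early stop codon of the isoform named in each legend and grey triangles the full-length stop. The early stop of *hif-1* and *hir-1* follows inclusion, that of *egl-9* follows skipping of the 95-nt exon, and the 63-nt exon leaves the stop in place.

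The splice sites of the exons differed. The acceptor sites are shown with 12 intron bases in lower case and the first 3 exon bases in capitals.
hif-1 203-nt exon: gtacgtatatagGAA
egl-9 95-nt exon: attaactttcagTAC
egl-9 63-nt exon: ttgtgatttcagTTG
hir-1 358-nt exon: catgtgttccagCTC
The worm acceptor letters TTTCAG, read on the transcribed strand directly before the exon, were present at both *egl-9* exons and at neither of the others, and 23.2% of 785 cassette exons carry them. The donor letters GTAAGT directly after the exon were at 0 of the 4 exons and at 8.54% of the 785. The upstream introns were short, with 103 nt in *hif-1*, 76 and 84 nt before the 95-nt and 63-nt exons of *egl-9* and 56 nt in *hir-1*, against a median of 206 nt over all exons. Downstream, both *egl-9* exons were followed by introns longer than the median of 273 nt (624 and 574 nt), whereas those of *hif-1* (209 nt) and *hir-1* (128 nt) were shorter. The exons of *hif-1* and *hir-1* were longer than 82.9% and 94.8% of the exons tested, whose median length was 102 nt.

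Inclusion was measured as percent spliced in (PSI), the share of junction reads of an exon that did not skip it. Summed over the exons tested, junction reads per library were 152874 to 319057 in *smg-1* and 88649 to 208127 in wild-type for the *smg-1* comparison, and 47438 to 123213 in *smg-2* and 70071 to 160670 in wild-type for the *smg-2* comparison. The same 3 wild-type libraries served both comparisons. *hif-1* had 371 to 1746 junction reads per library over the 9 libraries, far more than the other exons of these genes, which had 20 to 201. Intervals given for single libraries are exact binomial 95% intervals of the reads and cover counting error only.

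The *hif-1* exon was a minor choice in every group. PSI was 13.7%, 12.4% and 16.5% in the 3 *smg-1* libraries, from 1746, 1133 and 872 junction reads. In *smg-2* it was 13.2%, 15.8% and 10.2%, from 433, 749 and 371 reads. In wild-type it was 14.5%, 15.9% and 9.98%, from 1352, 446 and 992 reads. The ranges of all 3 groups overlapped, and wild-type replicate 3 was the lowest of the 9, with an interval of 8.19% to 12.02% that lay below that of wild-type replicate 1 (12.7% to 16.5%). Averages were 14.2% ± 2.1 in *smg-1*, 13.0% ± 2.8 in *smg-2* and 13.5% ± 3.1 in wild-type (SD, n = 3 each). *smg-1* differed from wild-type by 0.72 points (95% interval -5.38 to 6.82, limma adjusted p = 0.89) and *smg-2* by -0.42 points (-8.27 to 7.43, adjusted p = 0.96), so that shifts of 10 points lay outside both intervals. The averages differed from each other by less than the SD within any group. The sign turned when single libraries were left out, to -0.44 and -1.02 points in *smg-1* (without *smg-1* replicate 3 or wild-type replicate 3) and to 0.99, 0.10 and 0.81 points in *smg-2* (without *smg-2* replicate 3, wild-type replicate 1 or wild-type replicate 2). Here PSI is also the share of junction reads from the isoform whose frame ends before the proline that EGL-9 modifies. This share was not corrected for the number of junctions of each isoform, and fewer inclusion reads would lower it.

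The 95-nt exon of *egl-9* was included in most transcripts. PSI was 86.5%, 84.2% and 83.3% in *smg-1*, from 155, 82 and 66 junction reads. In *smg-2* it was 69.4%, 80.3% and 85.0%, from 62, 66 and 20 reads. In wild-type it was 92.1%, 89.4% and 70.3%, from 114, 66 and 74 reads. The *smg-1* libraries lay close together, while *smg-2* replicate 1 and wild-type replicate 3 stood at the low end, wild-type replicate 3 with an interval of 58.5% to 80.3% that did not reach that of wild-type replicate 1 (85.5% to 96.3%). The groups overlapped in every pair. Averages were 84.6% ± 1.6 in *smg-1*, 78.2% ± 8.0 in *smg-2* and 83.9% ± 11.9 in wild-type (SD, n = 3 each). The early-stop isoform here is the skipped one. Its share of junction reads, likewise not corrected, averaged 15.4% in *smg-1* animals, 21.8% in *smg-2* animals and 16.1% in wild-type.

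Inclusion of this exon differed from wild-type by 0.72 points in *smg-1* (95% interval -14.3 to 15.7, limma adjusted p = 0.91) and by -5.71 points in *smg-2* (-23.1 to 11.7, adjusted p = 0.64). These intervals are wide and contain changes of more than 10 points in either direction. Both differences depended on single libraries. The *smg-1* difference was -6.11 points without wild-type replicate 3 (adjusted p = 0.18) and -0.18 points without *smg-1* replicate 1, on the other side of 0 in both cases, and 4.81 and 3.45 points without wild-type replicates 1 and 2. The *smg-2* difference kept its sign, at -12.5 points without wild-type replicate 3 (adjusted p = 0.18), -9.10 points without *smg-2* replicate 3, -1.27 points without *smg-2* replicate 1, and -1.61 and -2.97 points without wild-type replicates 1 and 2.

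The 63-nt exon of *egl-9* showed the narrowest spread among the mutants. PSI was 84.1%, 84.5% and 81.8% in *smg-1*, from 201, 116 and 88 junction reads. In *smg-2* it was 86.6%, 87.5% and 87.0%, from 67, 80 and 23 reads. In wild-type it was 89.5%, 82.8% and 85.8%, from 153, 64 and 106 reads. Each mutant overlapped wild-type, but the highest *smg-1* library lay below the lowest *smg-2* library. How many of all exons separate in this way was not counted, and nothing is read from it. The interval of *smg-2* replicate 3, 66.4% to 97.2%, contained every *smg-1* value. Averages were 83.5% ± 1.4 in *smg-1*, 87.0% ± 0.47 in *smg-2* and 86.1% ± 3.4 in wild-type (SD, n = 3 each). The difference from wild-type was -2.61 points in *smg-1* (95% interval -8.62 to 3.41, limma adjusted p = 0.65) and 0.94 points in *smg-2* (-6.43 to 8.32, adjusted p = 0.92). Tested directly, *smg-2* minus *smg-1* was 3.55 points (-2.77 to 9.87, adjusted p = 0.68), and without wild-type replicate 2 the *smg-2* difference from wild-type was -0.68 points. The single libraries of *smg-2* had counting intervals 15.6 to 30.8 points wide.

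The 358-nt exon of *hir-1* was tested in the *smg-1* comparison only, and its level in *smg-2* is not analysed here. PSI was 15.89%, 10.34% and 13.41% in *smg-1*, from 24 of 151, 12 of 116 and 11 of 82 junction reads. In wild-type it was 1.77%, 26.9% and 12.3%, from 2 of 113, 7 of 26 and 9 of 73 reads. All 3 *smg-1* libraries lay between the lowest and the highest wild-type library. The lowest and highest wild-type libraries had exact intervals of 0.215% to 6.25% and 11.6% to 47.8%, which did not overlap each other. Averages were 13.2% ± 2.8 in *smg-1* and 13.7% ± 12.6 in wild-type (SD, n = 3 each), a difference of -0.46 points (95% interval -16.5 to 15.6, limma adjusted p = 0.78). The sign depended on single libraries: the difference was 6.16 points without wild-type replicate 2, the library of 26 reads (adjusted p = 0.32), and 0.98 points without *smg-1* replicate 2 (adjusted p = 0.80), while it was -6.41 points without wild-type replicate 1 (adjusted p = 0.54). With libraries weighted by their junction reads it was 4.97 points (adjusted p = 0.28).

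**Figure D2:**
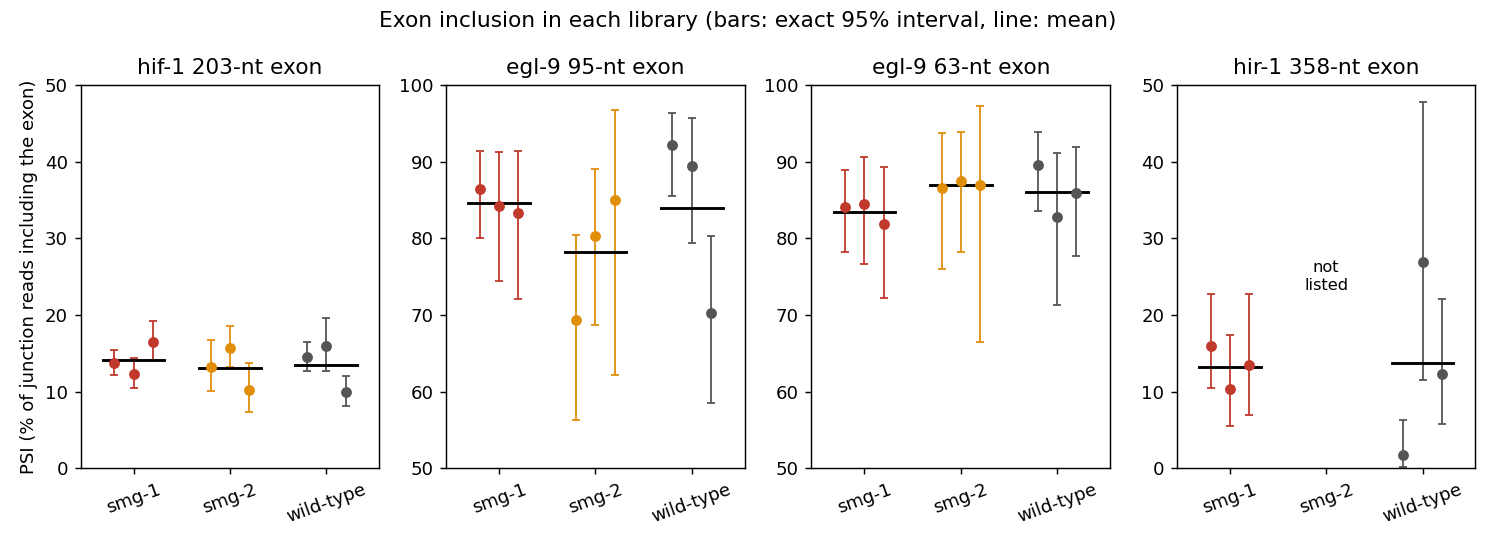
PSI (vertical axis, % of junction reads including the exon) of the 4 exons in each *smg-1*, *smg-2* and wild-type library, with exact 95% binomial intervals as bars and the group mean as a black line. The panels of *hif-1* and *hir-1* run from 0 to 50% and those of *egl-9* from 50 to 100%. The wild-type values of *hir-1* span 1.77% to 26.9%, and wild-type replicate 3 of the 95-nt *egl-9* exon lies at 70.3%.

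Between replicates, the exons of *hir-1* and the 95-nt exon of *egl-9* varied more in wild-type than most exons did. Their wild-type SDs of 12.6 and 11.9 points exceeded those of 84.5% and 83.1% of the 782 exons tested, for which the median SD was 4.50 points. In *smg-1* their SDs of 2.78 and 1.62 points were below the median of 3.46 points. The *hir-1* exon had 82 to 151 junction reads per library in *smg-1*, against 26 to 113 in wild-type. The 95-nt exon had 66 to 155 in *smg-1*, against 66 to 114 in wild-type. The lowest wild-type PSI of *hir-1* (1.77%) came from 113 reads and the highest (26.9%) from 26. For the 95-nt exon, wild-type replicate 3 (70.3%) had 74 reads and wild-type replicate 2 (89.4%) had 66. The part of depth in these spreads was not tested. The *hif-1* exon, with more junction reads per library than 97.7% of the exons, showed an SD of 2.12 points among *smg-1* libraries and 3.10 points among wild-type libraries.

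The study's thresholds for an NMD-sensitive event, an adjusted p under 0.05 and a change of PSI over 10 points, were applied here to the limma fits. The study used its own test and a filtered set of events, so the shares below are not comparable with the study's. Of the 4 exons, 0 passed in *smg-1*, where 12.8% of all 782 exons and 22.8% of the 324 non-triplet exons did. In *smg-2*, 0 of the 3 exons tested passed, where 15.1% of all 498 exons and 35.8% of the 173 non-triplet exons did. The lowest unadjusted p among them was 0.39 in the *smg-1* comparison and 0.34 in that of *smg-2*. Since the genes were chosen with these comparisons known, the counts describe the exons and nothing is read from them. The change of the *hif-1*, *egl-9* 95-nt and *hir-1* exons in *smg-1* was smaller in size than that of all but 7.54%, 7.67% and 4.86% of the exons. The 63-nt exon exceeded 27.2% of exons in *smg-1*, and the 95-nt exon exceeded 46.0% in *smg-2*.

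**Figure D3:**
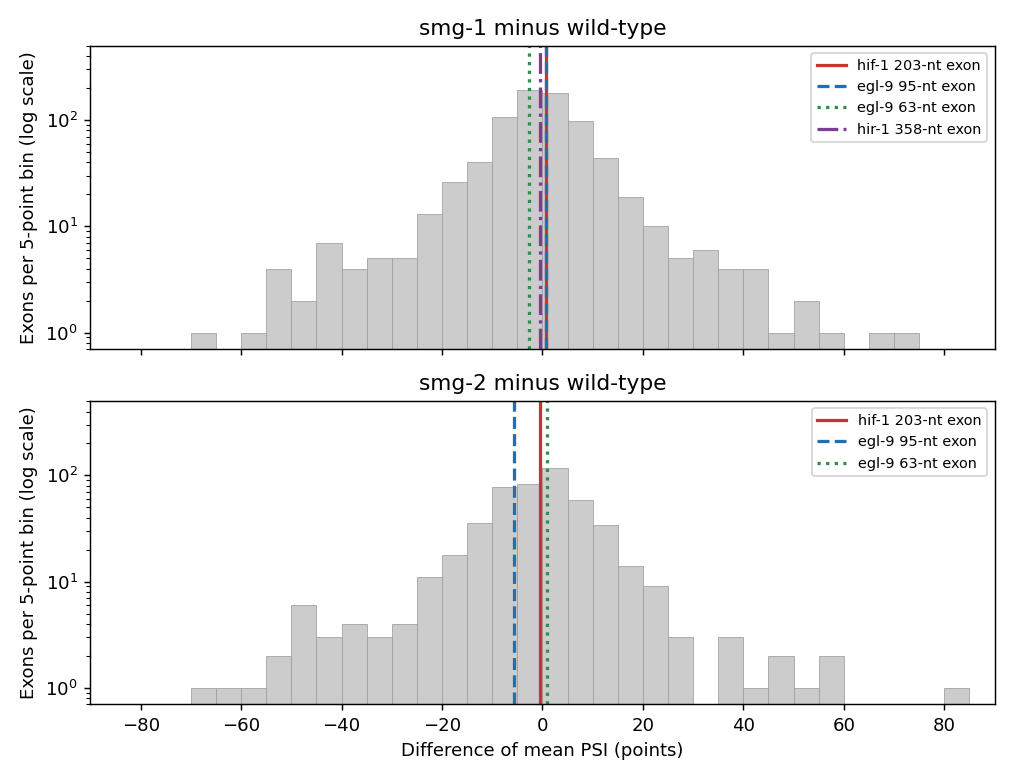
Number of cassette exons (log scale) per 5-point bin of the difference of mean PSI, *smg-1* minus wild-type above and *smg-2* minus wild-type below, with vertical lines at the exons of *hif-1*, *egl-9* and *hir-1*. All lines lie within 6 points of 0, from -5.71 points for the 95-nt *egl-9* exon in *smg-2* to 0.94 points for the 63-nt exon in *smg-2*.

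The mutants were also compared with each other, which involves no wild-type library. *smg-2* minus *smg-1* was -1.14 points for *hif-1* (95% interval -8.25 to 5.98, limma adjusted p = 0.89) and -6.43 points for the 95-nt exon of *egl-9* (-17.0 to 4.10, adjusted p = 0.69). The *hif-1* value was 0.27 points without *smg-2* replicate 3 and 0.025 points without *smg-1* replicate 3, and that of the 95-nt exon was -1.99 points without *smg-2* replicate 1. Over all 498 exons, limma called 0 (0%) between the mutants on the logit and 0 on the scale of points, and 42 had an unadjusted p under 0.05. Every *smg-1* library of the 95-nt exon lay within the *smg-2* range apart from *smg-1* replicate 1, which was above it.

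**Figure D4:**
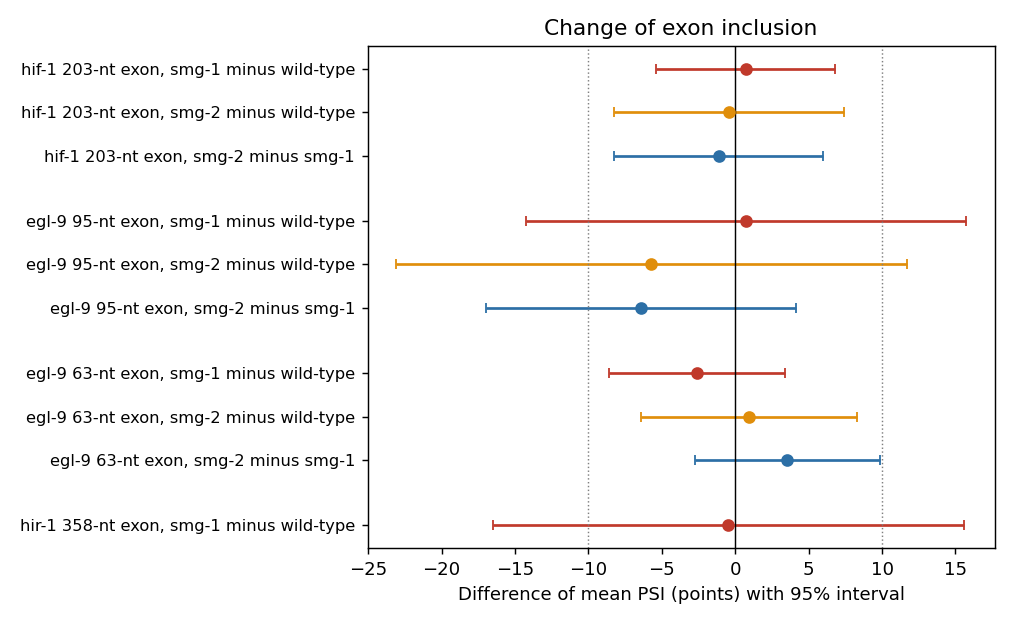
Difference of mean PSI in points, mutant minus wild-type or *smg-2* minus *smg-1*, with its 95% interval from limma on untransformed PSI. Dotted lines mark 10 points. All 10 intervals contain 0, those of *hif-1* and of the 63-nt *egl-9* exon stay within 10 points, and those of the 95-nt *egl-9* exon and of *hir-1* do not.

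The 4 exons fell into a low and a high pair. Mean PSI in *smg-1* was 14.2% for *hif-1* and 13.2% for *hir-1*, and 84.6% and 83.5% for the 95-nt and 63-nt exons of *egl-9*, where the median of all exons was 53.7%. Exons were not tested against each other. In *smg-1* and in wild-type, the means within a pair lay closer together than the SD of either exon. In *smg-2*, the 95-nt exon averaged 78.2% ± 8.0 and the 63-nt exon 87.0% ± 0.47. Their *smg-2* ranges, 69.4% to 85.0% and 86.6% to 87.5%, did not overlap. The minor isoform was the included one in *hif-1* and *hir-1* and the skipped one in *egl-9*. It was the early-stop isoform in 3 of the 4 exons, where its mean share of junction reads was 13.0% to 21.8% in all groups measured. Both exons of *egl-9* lie in the same gene and were counted in the same libraries, so they are not independent of each other. Some annotated transcripts, such as F22E12.4a.1, hold both, while F22E12.4b.1 holds only the 63-nt and F22E12.4d.1 only the 95-nt exon.

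Exons of other genes with the closest pattern were those with the smallest root mean square difference of PSI over the 6 *smg-1* and wild-type libraries, out of 760 exons with a value in all of them. For *hif-1* these were exons of F13B9.1 (66 nt, 1.56 points), *gei-4* (87 nt, 1.81 points) and *mig-15* (27 nt, 2.96 points). For *hir-1* they were exons of *rft-2* (39 nt, 3.44 points), *pap-1* (64 nt, 4.64 points) and C34B2.11 (72 nt, 4.66 points). For the 95-nt exon of *egl-9* they were exons of *lgx-1* (153 nt, 5.16 points), C13B4.1 (144 nt, 5.37 points) and *hizr-1* (85 nt, 5.42 points), and for the 63-nt exon those of *tsen-34* (274 nt, 1.79 points), F14B8.5 (108 nt, 2.41 points) and *gyf-1* (204 nt, 3.84 points). The largest distances were those of the 95-nt exon. Those of *hir-1* (3.44 to 4.66 points) overlapped those of the 63-nt exon (1.79 to 3.84 points).

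No other gene of the hypoxia lists had a cassette exon among those tested. Of 22 HIF pathway genes (among them *vhl-1*, the ubiquitin ligase subunit that binds HIF-1, *aha-1*, its dimer partner, and *rhy-1*, a negative regulator), 4 bHLH-PAS transcription factor genes and 3 collagen-type prolyl 4-hydroxylase genes, 0 were represented. Of 16 receptor tyrosine kinase genes, 3 had an exon in both comparisons, all of triplet length: *vab-1* (an ephrin receptor, 99 nt), *let-23* (the EGF receptor, 21 nt) and *daf-2* (the insulin receptor, 246 nt). None of the 3 was called in either mutant. In *smg-1* the median change of these exons was -1.77 points, beside -0.42 points over all exons tested. For *smg-2* it was 0.10 points, beside -0.13 points.

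PSI of the *let-23* exon was 21.6%, 21.7% and 22.6% in *smg-1* and 32.0%, 22.2% and 43.8% in *smg-2*, against 31.0%, 30.4% and 9.76% in wild-type, and wild-type replicate 3 was the lowest of the 9, as for *hif-1*. The *daf-2* exon averaged 18.9% ± 3.2 in *smg-1*, 19.4% ± 6.4 in *smg-2* and 20.7% ± 2.4 in wild-type (SD, n = 3 each). The *vab-1* exon, like those of *egl-9*, was mostly included, at 89.1% ± 3.5 in *smg-1*, 92.2% ± 2.4 in *smg-2* and 92.1% ± 4.7 in wild-type.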

How the data were processed

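Splicing was analysed from 2 tables of cassette exons, 1 per mutant, each with 3 mutant and 3 wild-type libraries. Groups were taken from the sample labels. The authors mapped paired-end reads to the worm genome with STAR and measured junction usage with JUM, which required a minimum of junction reads per event. The usage values were deposited by the authors as a fraction, the reads over the skipping junction divided by those of both junctions that the event's identifier names, and PSI was 1 minus this usage, in percent. The deposited counts are the authors' raw reads across the skipping junction. The labels of counts and usage conflict. Count divided by usage gives the total of junction reads, and it was whole, to within 6e-05 of usage, in 100% of 3831 (*smg-1*) and 3185 (*smg-2*) cells once mutant counts were taken as wild-type counts and the reverse, but in 18.4% and 18.8% of cells under the labels as deposited (only cells in which this tolerance is under 0.1 read were used). Counts under the mutant label were the same in both tables, while wild-type is the group that the tables share. The usage labels were therefore kept and the counts exchanged. The deposited columns of the authors' own test were not used. Each count and usage column used was assigned to a sample by its label.

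Of 786 exons in the *smg-1* table, 3 lacked 2 values in a group and 1 had its coordinates inverted, and the other 782 were tested. For *smg-2*, 620 were listed, of which 122 repeated the *smg-1* values and 498 were tested. Over the exons listed with valid coordinates, mean PSI in the mutant ran from 5.03% to 95.0% for *smg-1* and from 5.08% to 94.8% for *smg-2*. In wild-type it ran from 0% to 100%. The shares of exons called hold for exons within these mutant limits, and their part in which exons were listed was not tested. The logit of PSI, held within 1-99%, was tested in limma 3.58.1 (R 4.3.3, lmFit and eBayes), with Benjamini-Hochberg adjustment over all exons of a comparison. Intervals of differences came from limma on untransformed PSI. The test was checked on simulated libraries with known changes. Their spread between replicates followed 1 setting for all exons and was not fitted to the exons described, so the check does not cover their spread. The members and lists were chosen with earlier results of these data known, so p-values of the members describe them. Genes named beside *hif-1*, *egl-9* and *hir-1* were the 3 exons closest in PSI to each member and all genes of 4 lists that had an exon. Deviations from the group means correlated at 0.13, 0.11 and 0.10 between same-numbered *smg-2* and *smg-1* libraries. *smg-2* replicate 1 with *smg-1* replicate 2 also reached 0.11, and no label states what a number shares, so a pairing by number is not established. Blocking on the replicate number changed no call of the *hif-1*, *egl-9* and *hir-1* exons. The alternatives changed the limits of PSI, the scale, the count of inclusion reads, the minimum of reads, the moderation, the weights, the rows used, the change required for a call and the libraries included.

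The annotation was WBcel235, the build whose exon boundaries the tables match. Isoforms were built by adding the exon to, or removing it from, a coding transcript and reading from the annotated start. The remaining steps ran in Python 3.11.15 (numpy 2.4.6, pandas 2.3.3, scipy 1.17.1, matplotlib 3.10.9).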

Additional observations from a re-analysis of the deposited data

How the results depend on the processing

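None of the differences of the *hif-1*, *egl-9* and *hir-1* exons reached a limma adjusted p under 0.05 in any of 118 alternative values, the lowest being 0.18. Of these values, 103 kept the sign and 15 reversed it. Many of the 103 could not reverse, because their settings changed the test and left the difference of mean PSI as it was. These were the scale, the limits of PSI, the minimum of reads, the moderation, the rows used and the replicate block. With inclusion reads halved, the *egl-9* 95-nt difference in *smg-1* was -0.054 points. With libraries weighted by junction reads, the *hir-1* difference was 4.97 points in *smg-1* and that of *hif-1* 0.59 points in *smg-2*. The cause of these reversals was not tested. Leaving out each replicate in turn gave -1.02 to 1.95 points for *hif-1*, -6.41 to 6.16 for *hir-1*, -6.11 to 4.81 for the 95-nt and -4.23 to -0.87 for the 63-nt exon of *egl-9* in *smg-1*. In *smg-2* it gave -2.16 to 0.99 for *hif-1*, -12.5 to -1.27 for the 95-nt and -0.68 to 2.68 points for the 63-nt exon. Between the mutants (*smg-2* minus *smg-1*) it gave -2.49 to 0.27 for *hif-1*, -9.82 to -1.99 for the 95-nt and 2.73 to 4.06 points for the 63-nt exon.

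For *smg-1*, 100 exons were called, against 158 at more than 5 points and 56 at more than 20 points. For *smg-2*, 75 were called, against 41 at more than 20 points. Leaving out each replicate gave 69 to 113 and 54 to 72. The replicate block gave 80 calls for *smg-1* and 63 for *smg-2*, and changed no call of the exons described. Same-numbered libraries correlated with wild-type at 0.091, 0.022 and -0.030 in *smg-1* and at 0.0080, 0.12 and 0.16 in *smg-2*. No label states what a number shared with wild-type means, and a pairing is not established here either. Counting error was largest for *hir-1* and *egl-9*, where libraries of 20 to 26 reads had exact intervals 30.8 to 36.2 points wide. The part of depth in the spread between replicates was not tested.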
